A study of Homo sapiens with 10 samples.

Results

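The cells described here are those of the Kuramochi population exposed to 320 µM olaparib (T320) that are absent from a metadata table deposited beside the count matrix, set against the T320 cells that the table lists. The table's name refers to G1, the growth phase before DNA synthesis. The sources used here do not state how its cells were chosen, so the groups are called unlisted and listed. By this rule 774 of the 1334 T320 cells were unlisted (58.0%) and 560 were listed (42.0%). All 560 listed cells carry the same label, state S5, in the table. Over the 10 populations of the series, 8240 of 18209 cells are listed.

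Kuramochi is a human ovarian cancer cell line, labelled epithelial and BRCA2-mutant, and every cell of the series shares that line and genotype. Olaparib blocks PARP enzymes, and cells that repair breaks poorly by homologous recombination tend to be sensitive to the drug. The populations came from 1 escalation of olaparib, from untreated cells (C) through 1, 2.5, 5, 10, 20, 40, 80 and 160 µM to 320 µM, each exposure lasting until the culture was confluent. Each population is 1 inDrop library, a droplet method that counts transcripts by molecular identifiers (UMIs). Both groups of T320 cells thus received the same dose, came from the same culture and were sequenced in the same library.

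A dividing cell passes from G1 through DNA synthesis (S) and G2 to mitosis (M). Replication genes are switched on at the G1/S border, largely by E2F factors, and mitotic genes peak in G2/M, largely through B-MYB, FOXM1 and the DREAM complex, which holds them silent in resting cells. If the listed cells were chosen on cell-cycle transcripts, the differences in those transcripts follow from the choice, and they are given here as a description of the groups. With 1 library there is no replicate of either group, cells are not replicates of a condition, and no test was possible. Intervals are 95% and cover counting error only.

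The library held 2826113 UMIs. Unlisted cells had a median of 1794 UMIs (697 to 4904) and 1128 genes, and listed cells a median of 1934 UMIs (701 to 4890) and 1119.5 genes. The median mitochondrial share was 6.16% of a cell's UMIs in unlisted cells and 7.37% in listed cells. Each cell was drawn down at random to 1000 UMIs, which left 620 unlisted cells (154 shallower cells left out) and 471 listed cells (89 left out), and the UMIs of each group were summed and scaled to CPM, counts per 1000000 UMIs. Of the 1334 T320 barcodes, 165 also occur in at least 1 other library, with 8 to 30 shared per library. Of the epithelial markers, KRT8, KRT18 and PAX8 had at least 100 CPM in both groups, while EPCAM, KRT7, KRT19 and WT1 were listed at 0 in T320. A gene of this library is listed either at 0 or in at least 13 of its cells, so 0 is not a measured absence. Markers of other cells were few: 1 of 10 immune markers is in the matrix (CD68, at 54.8 CPM in unlisted and 21.2 CPM in listed cells), 1 of 8 endothelial markers had a UMI (EMCN, at 29.0 and 53.1 CPM, in the same order), and 1 of 9 fibroblast markers did (THY1, at 184 and 106 CPM).

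Cell by cell, the groups separated on mitotic transcripts. The list of 54 G2/M genes gave a median of 11 UMIs per unlisted cell, with 1 to 49 in single cells, and a median of 2 UMIs per listed cell, with 0 to 12. At least 3 UMIs of this list were found in 605 of 620 unlisted cells (97.6%, exact binomial interval 96.0 to 98.6) and in 176 of 471 listed cells (37.4%, 33.0 to 41.9). No unlisted cell lacked a UMI of the list, and 65 listed cells did. The distributions overlap between 1 and 12 UMIs per cell.

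The 43 genes of the G1/S list showed the same order at lower counts. The median was 4 UMIs per unlisted cell and 1 UMI per listed cell. At least 3 UMIs were found in 459 unlisted cells (74.0%, 70.4 to 77.4) and in 46 listed cells (9.77%, 7.24 to 12.8). Without thinning, these shares were 89.4% of unlisted and 37.0% of listed cells for G1/S genes, so the level of such a share depends on depth while the order of the groups does not. Cells poor in both lists, with under 3 UMIs of each, made up 6 of 620 unlisted cells (0.968%) and 278 of 471 listed cells (59.0%). Cells with at least 3 UMIs of both made up 450 unlisted cells (72.6%) and 29 listed cells (6.16%). Free RNA can add UMIs of abundant transcripts to any droplet. The line holds no cell type that lacks these genes, and the part of free RNA in the UMIs of listed cells was not tested.

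**Figure D1:**
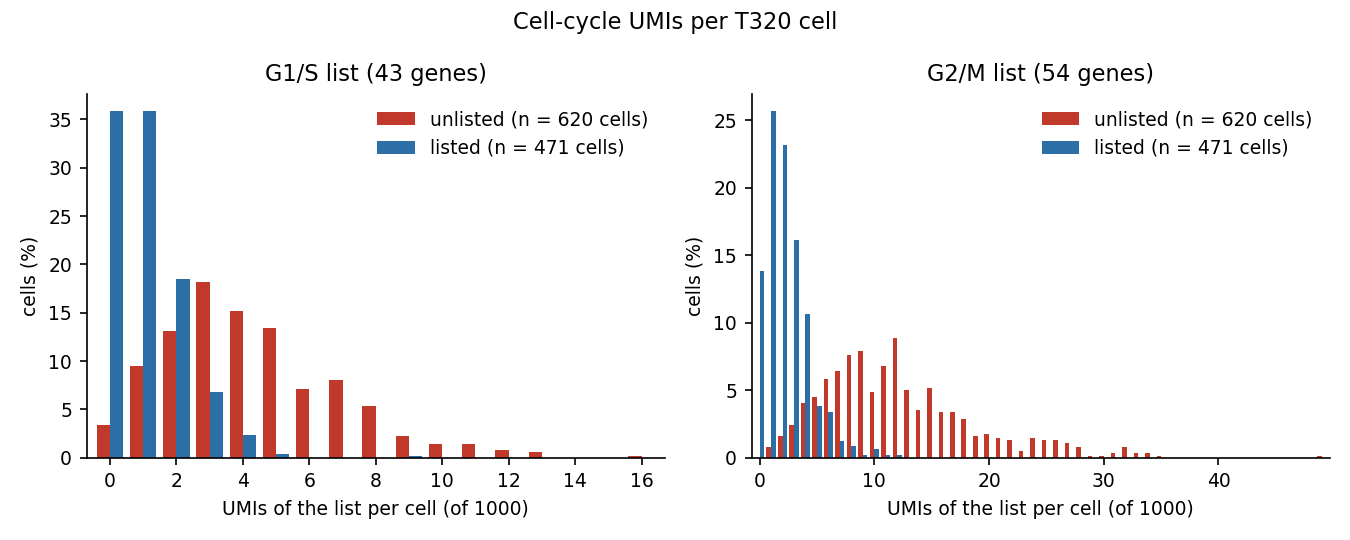
Share of T320 cells (%) by the number of UMIs of the G1/S list (left) or the G2/M list (right) among 1000 UMIs per cell, in 620 unlisted cells (red) and 471 listed cells (blue). Unlisted cells centre on 4 and 11 UMIs, listed cells on 1 and 2, and the groups overlap.

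A phase score from the same lists called 33 unlisted cells G1 (5.32%), 135 S (21.8%) and 452 G2/M (72.9%). Among listed cells it called 409 G1 (86.8%), 26 S (5.52%) and 36 G2/M (7.64%). Scores within 0.05 of the threshold were found in 72 unlisted and 98 listed cells. These calls rest on the lists above and add no independent evidence of phase. Listed cells were thus mostly, but not all, poor in cycle transcripts.

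Across the transcriptome, 2259 of 12373 genes reached 100 CPM in at least 1 of the groups and are called measured. A gene counts as higher or lower when CPM + 10 differed at least 1.5-fold. Differences are log2(CPM + 10) of unlisted minus listed cells, so folds of low genes are understated on that scale. In unlisted cells 270 genes were higher (12.0% of those measured) and 168 were lower (7.44%), and the median difference of all measured genes was 0.04. Scaled by TMM factors, the same sums gave 220 higher and 228 lower genes, and by DESeq2 size factors 223 and 215, so the balance of the directions rests on the scaling. At 100 CPM in both groups the counting interval of a ratio runs from 0.675 to 1.5, so a call of a gene at that level rests on a difference about as large as its counting error. A gene that passes only through the group where it is high is likely to be called by that choice. Of 1651 genes with at least 100 CPM in both groups, 90 were higher (5.45%) and 83 lower (5.03%).

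The 13 lists of cell-cycle genes hold 104 measured genes, of which 90 were higher in unlisted cells and 1, CDK6, was lower. Outside them, 180 of 2155 measured genes were higher and 167 were lower.

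**Figure D2:**
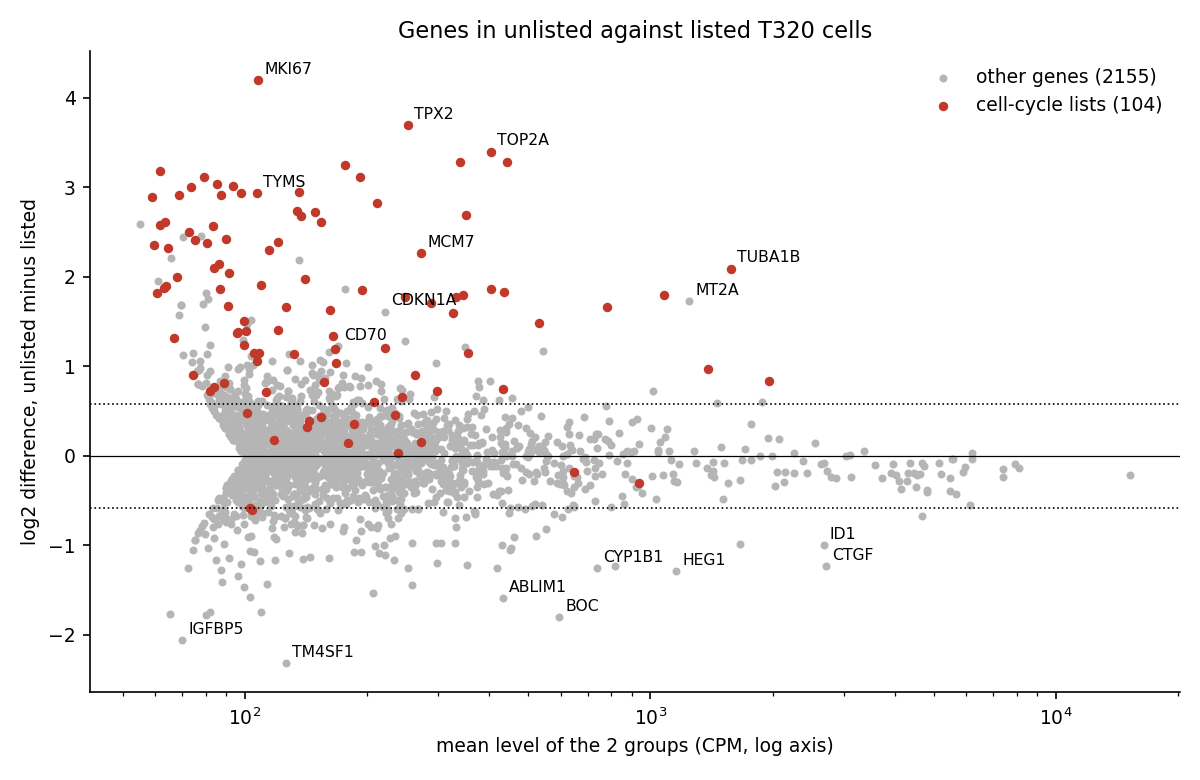
Difference between unlisted and listed T320 cells (log2 of CPM + 10, unlisted minus listed) against the mean level of the groups (CPM, log axis) for 2259 measured genes; red points are the 104 genes of the cell-cycle lists, grey points the other 2155, and dotted lines mark 1.5-fold. Red points lie almost wholly above the upper line, while genes such as BOC, CTGF and ID1 lie below the lower one.

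Mitotic genes differed most. MKI67, the gene of the proliferation antigen Ki-67, had 358 UMIs in the unlisted cells and 4 in the listed cells before thinning, a ratio of 66.7 with an interval of 25.8 to 246. TOP2A, which untangles replicated DNA, was at 745 CPM in unlisted and 61.6 CPM in listed cells, 12.1-fold higher (8.31 to 18.3). CENPF, a kinetochore protein of G2/M cells, was at 623 and 55.2 CPM, again with unlisted cells first.

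The promoters of these genes are shown because many genes of the G2/M list were higher together in unlisted cells. Each window runs from 250 bases before to 50 after the annotated start, 5′ to 3′ on the gene's strand, from RefSeq (GRCh38.p14). The MKI67 window is chr10:128126374-128126673 on the minus strand, that of TOP2A chr17:40417847-40418146 on the minus strand, and that of CENPF chr1:214602945-214603244 on the plus strand. Capitals mark the cell-cycle homology region (CHR, TTTGAA or TTCGAA), bound by the DREAM and B-MYB complexes, and the CCAAT box, bound by NF-Y, on either strand. In MKI67, the second CHR overlaps a CCAAT box read on the other strand.
MKI67: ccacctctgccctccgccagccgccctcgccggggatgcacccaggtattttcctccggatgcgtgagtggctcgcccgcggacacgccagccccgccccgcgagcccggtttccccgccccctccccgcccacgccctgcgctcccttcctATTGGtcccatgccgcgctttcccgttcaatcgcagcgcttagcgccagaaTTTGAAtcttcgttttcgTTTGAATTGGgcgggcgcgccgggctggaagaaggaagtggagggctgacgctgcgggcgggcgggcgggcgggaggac
TOP2A: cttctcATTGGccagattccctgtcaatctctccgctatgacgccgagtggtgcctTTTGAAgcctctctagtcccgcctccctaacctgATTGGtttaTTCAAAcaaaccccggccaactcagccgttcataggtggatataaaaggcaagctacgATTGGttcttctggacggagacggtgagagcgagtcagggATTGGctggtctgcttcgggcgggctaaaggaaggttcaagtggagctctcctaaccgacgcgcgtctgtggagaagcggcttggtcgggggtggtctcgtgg
CENPF: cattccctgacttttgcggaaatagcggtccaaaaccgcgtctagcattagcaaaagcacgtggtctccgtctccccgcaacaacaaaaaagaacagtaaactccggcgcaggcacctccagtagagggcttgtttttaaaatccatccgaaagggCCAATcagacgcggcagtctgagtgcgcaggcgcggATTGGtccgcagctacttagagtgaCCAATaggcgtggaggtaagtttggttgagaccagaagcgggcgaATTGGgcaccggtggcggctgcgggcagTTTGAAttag

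Promoters were matched for 45 of the 54 G2/M genes. A CHR was found in 33 of them (73.3%), against 16.4% of all 35116 promoters in the table and 11.5% of those of measured genes. A CHR together with a CCAAT box was found in 27 (60%), against 6.38% of all promoters. Of the 32 G1/S promoters matched, 3 held a CHR (9.38%). These are matches of letters in a window, not observed binding.

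Spindle genes were higher as a group: of 31 on the list of mitotic kinesins and spindle factors, 19 were measured, 17 of them through the unlisted cells alone, and all 19 were higher, with a median log2 difference of 2.43. TPX2, which activates Aurora A on the spindle, was at 477 CPM in unlisted and 27.6 CPM in listed cells (17.3-fold higher, 9.96 to 32.9). KIF20A, KIF2C and KIF11, motors of cytokinesis, chromosome alignment and spindle bipolarity, differed by 3.04, 2.94 and 2.91 on the log2 scale. Summed over all 31 genes, which needs no filter, the list was at 4958 CPM in unlisted and 875 CPM in listed cells.

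Kinases and cyclins followed. CDK1, the kinase that drives entry into mitosis, was at 327 CPM in unlisted and 25.5 CPM in listed cells, and its partner CCNB1 was at 197 and 31.8 CPM in the same order. AURKB, of the chromosomal passenger complex, differed by 2.83 on the log2 scale, and PLK1, a kinase of mitotic entry and spindle assembly, was at 119 CPM in unlisted cells against 2 UMIs in the listed sum, a ratio of 28.1 (7.51 to 236). Of 31 cyclins and kinases 11 were measured and 8 were higher, 7 of them through the unlisted cells alone. Of the 3 that reached 100 CPM in both groups 1 was higher and none lower. CDK6, a kinase of the G1 phase, passed through the listed cells alone and was lower at 80.6 against 127 CPM. Its log2 difference without thinning, -0.54, was short of the call. Over all 31 genes, with no filter, the sum was 3466 CPM in unlisted and 1087 CPM in listed cells. CCND1, the D-type cyclin of G1, was below the measured level at 46.8 CPM in unlisted and 72.2 CPM in listed cells.

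The machinery that ends mitosis was also higher. UBE2C, the ubiquitin-conjugating enzyme of the anaphase-promoting complex, was at 813 CPM in unlisted and 74.3 CPM in listed cells (10.9-fold higher, 7.76 to 15.9). CDC20, an activator of that complex, TTK and MAD2L1 of the spindle checkpoint, and PTTG1, which encodes securin, differed by 2.41, 3.02, 1.90 and 1.87 on the log2 scale. Of 22 genes of this list 8 were measured, 6 of them through the unlisted cells alone, and 7 were higher. Of the 29 centromere and kinetochore genes 8 were measured and counted as higher, but all 8 reached 100 CPM in the unlisted cells alone, so that count follows from the filter. Over all 29 genes, with no filter, the sum was 2800 CPM in unlisted and 594 CPM in listed cells (4.71-fold, 4.15 to 5.36).

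Chromosome structure genes were mostly higher. Of 20 condensin, cohesin and topoisomerase genes 11 were measured, 9 were higher and none was lower. Of the 9 higher genes 6 passed through the unlisted cells alone, and among the 5 that reached 100 CPM in both groups 3 were higher. The condensin subunits NCAPG and NCAPD2 and the SMC2 and SMC4 ATPases had log2 differences of 2.61, 1.98, 2.10 and 1.79. Among cohesin genes the log2 difference was 2.14 for SMC1A, 0.75 for RAD21 and 0.60 for SMC3, and STAG2, at 0.33, was not called. TOP2B, the type II topoisomerase that resting cells also use, was at 165 CPM in unlisted and 123 CPM in listed cells and was not called, unlike TOP2A.

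Replication genes were higher by smaller amounts, with lower counts. TYMS, which makes thymidylate, was at 197 CPM in unlisted and 17.0 CPM in listed cells (11.6-fold higher, 5.70 to 27.4). Of the helicase subunits, MCM4 was at 240.3 and 27.6 CPM, MCM7 at 456 and 87.0 CPM and MCM2 at 153 and 29.7 CPM, unlisted cells first. PCNA, the sliding clamp of DNA polymerases, was at 389 CPM in unlisted and 106 CPM in listed cells (3.66-fold higher, 2.69 to 5.07). RRM1 and TK1, of deoxynucleotide supply, had log2 differences of 1.85 and 2.72, and RRM2, the small subunit of ribonucleotide reductase, was below the measured level in both groups at 64.5 CPM in unlisted cells against 1 UMI in the listed sum.

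TYMS (chr18:657403-657702 on the plus strand) and MCM2 (chr3:127598161-127598460 on the plus strand) are shown with their E2F motifs in capitals, as examples of the G1/S list. The motifs searched on both strands were TTTCCCGC, TTTCGCGC, TTTGCCGC and TTTGGCGC, and those of MCM2 overlap each other.
TYMS: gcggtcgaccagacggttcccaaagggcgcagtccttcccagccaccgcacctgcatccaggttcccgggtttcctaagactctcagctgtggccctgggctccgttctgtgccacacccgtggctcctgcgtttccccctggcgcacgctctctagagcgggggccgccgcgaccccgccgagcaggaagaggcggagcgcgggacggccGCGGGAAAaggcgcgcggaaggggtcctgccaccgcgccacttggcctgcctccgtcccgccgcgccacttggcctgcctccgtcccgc
MCM2: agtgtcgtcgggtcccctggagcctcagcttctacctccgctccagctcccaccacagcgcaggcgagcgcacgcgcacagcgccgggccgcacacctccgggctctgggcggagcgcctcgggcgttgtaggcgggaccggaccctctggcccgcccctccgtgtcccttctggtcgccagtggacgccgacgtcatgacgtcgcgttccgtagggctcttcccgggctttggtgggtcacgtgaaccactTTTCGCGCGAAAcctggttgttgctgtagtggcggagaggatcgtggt

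An E2F motif was found in 16 of the 32 matched G1/S promoters (50%) and in 6.67% of the G2/M promoters. It was found in 3.31% of all promoters and 5.89% of those of measured genes. CCAAT boxes were found in both lists, in 71.9% of G1/S and 68.9% of G2/M promoters, against 34.6% of all and 39.6% of those of measured genes. Of the factors, E2F1 was at 111 CPM in unlisted cells against 3 UMIs (6.37 CPM) in listed cells. MYBL2, which encodes B-MYB, was at 352 and 31.8 CPM in the same order. RB1, which restrains E2F, was at 100 CPM in unlisted and 48.8 CPM in listed cells. E2F1, MYBL2 and RB1 reached 100 CPM in the unlisted cells alone, and their part in the differences of the lists was not tested.

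Only 10 of the 43 G1/S genes and 31 of the 54 G2/M genes were measured, 8 and 26 of them through the unlisted cells alone. Of those measured, all 10 G1/S genes were higher (median log2 difference 1.78), and 30 G2/M genes were (median 2.50), with TMPO, a lamina-associated protein gene, not called at 0.48. TMPO was at 0.87 without thinning, past 1.5-fold, and at 1.04 to 1.78 within the 9 other populations. Over all members, with no filter, G1/S genes summed to 4309.7 CPM in unlisted and 1066 CPM in listed cells (4.04-fold), and G2/M genes to 12176 and 2312 CPM (5.27-fold). Within the unlisted cells the lists peaked in different cells, as the phase calls require: CCNB1 was at 44.4 CPM in cells called S and 252 CPM in cells called G2/M, and PCNA was at 600 CPM and 339 CPM. The 44.4 CPM of CCNB1 in cells called S rest on 6 UMIs.

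Histone and chromatin supply genes were higher in 11 of 12 measured cases, 6 of which passed through the unlisted cells alone, with a median log2 difference of 1.17. HMGB2 and DEK, chromatin proteins of dividing cells, were at 616 and 787 CPM in unlisted cells and at 87.0 and 274 CPM in listed cells. DNMT1, the maintenance DNA methyltransferase, had a log2 difference of 1.67. HIST1H4C, a replication-dependent histone H4 gene, was at 2515 CPM in unlisted and 1401 CPM in listed cells, and its log2 difference of 0.84 was below the 1.10 to 1.77 seen within the 9 other populations. Tubulin genes were higher in 6 of 7 measured cases, led by TUBA1B at 2566 and 594 CPM, unlisted cells first. Tubulins share long stretches of sequence and the split of reads among them is uncertain.

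Homologous recombination and fork repair genes were mostly too low to be measured. Summed over the 40 of 41 that are in the matrix, with no filter, they were at 1865 CPM in unlisted and 743 CPM in listed cells (2.51-fold higher, 2.22 to 2.84). Only 6 were measured and none reached 100 CPM in both groups: the 4 higher genes passed through the unlisted cells alone and the 1 lower gene through the listed cells alone, so the count of either direction follows from the filter. BRCA1, which acts upstream of BRCA2 in homologous recombination, was at 115 CPM in unlisted and 17.0 CPM in listed cells (6.74-fold higher, 3.24 to 16.2), and its partner BARD1 was at 158 and 48.8 CPM. USP1 and UBE2T, which remove and add ubiquitin in the Fanconi pathway, had log2 differences of 1.39 and 1.02. NBN, of the MRN complex that senses breaks, was the lower one at 80.6 CPM in unlisted against 134 CPM in listed cells, and its log2 difference without thinning, -0.37, was short of the call.

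PARP1, the main target of olaparib, was at 273 CPM in unlisted and 149 CPM in listed cells, 1.83-fold higher (1.38 to 2.46). Cells called S held 215 CPM and cells called G2/M 301 CPM. RIF1, an effector of 53BP1 that restrains end resection, was at 198 CPM in unlisted and 93.4 CPM in listed cells. XRCC6 (Ku70) and PRKDC, of end joining, had log2 differences of 0.72 and 0.62, and XRCC5 (Ku80) and the kinase ATM, at 0.37 and -0.34, were not called. The 6 measured genes of this list of 25 had a median log2 difference of 0.67, against 0.06 to 0.43 for the same genes within the 9 other populations. With no filter on low values the T320 median was 0.34, over the 19 genes with a UMI. An unfiltered median was not computed for the other populations, so no gap is read from these values. XRCC6 was at 0.55 without thinning, short of the call.

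Inhibitors of the cycle went in both directions. CDKN1A, which encodes the inhibitor p21 of cyclin-dependent kinases, was at 339 CPM in unlisted and 104 CPM in listed cells, 3.26-fold higher (2.38 to 4.54). It was at 289 CPM in unlisted cells called S and at 352 CPM in those called G2/M. CDKN2A, the locus of p16 and ARF, was lower at 197 CPM in unlisted against 395 CPM in listed cells, with 319 CPM in cells called S and 159 CPM in cells called G2/M. Of the 30 genes of the list of inhibitors and damage-response genes 9 were measured, and 3 were higher and 1 lower. Of the 3 higher genes 2 passed through the unlisted cells alone. Among the 5 that reached 100 CPM in both groups 1 was higher and 1 lower. The median log2 difference of the 9 was -0.26. GDF15, a secreted stress cytokine, was among the higher ones at 152 CPM in unlisted and 91.3 CPM in listed cells, but it passed through the unlisted cells alone and its log2 difference without thinning was 0.41, short of the call. Its direction was shared by 5 of the 9 other populations. Among the rest, ZMAT3, PLK2 and BTG1 were not called at log2 differences of -0.52, -0.49 and -0.32.

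Among the genes of rest, CITED2 was lower at 219 CPM in unlisted against 439 CPM in listed cells. TXNIP, an inhibitor of thioredoxin and glucose uptake, was at 168 and 291 CPM, and MXI1, an antagonist of MYC, at 82.3 and 134 CPM, unlisted cells first. These were the 3 lower genes among 6 measured of 25, MXI1 having passed through the listed cells alone, and none was higher. Their log2 differences lay between -0.97 and -0.64.

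Of the 10 highest calls outside the cell-cycle lists the most abundant was MT2A, a metallothionein that binds zinc and copper. It was at 1919 CPM in unlisted and 571 CPM in listed cells, 3.36-fold higher (2.94 to 3.85), and at 1793 CPM in cells called S and 2031 CPM in cells called G2/M. Metallothionein genes are close copies of each other, and MT1X was at 82.3 and 46.7 CPM, unlisted cells first, below the measured level. Other high genes outside the lists were SHCBP1, CDKN3, DIAPH3, PRR11 and MASTL, at log2 differences of 2.59, 2.46, 2.45, 2.19 and 1.96. MASTL encodes the Greatwall kinase of mitotic entry, CDKN3 a phosphatase of CDKs and DIAPH3 a formin of the contractile ring, so the lists did not hold every gene of division.

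Amino acid genes were at 2608 CPM in unlisted and 2036 CPM in listed cells, summed over the list with no filter (1.28-fold higher, 1.18 to 1.39). Of 13 measured, 7 reached 100 CPM in both groups, and 3 of these were higher and none lower. The other 3 higher genes passed through the unlisted cells alone and the 1 lower gene through the listed cells alone. SLC7A5, a transporter of large neutral amino acids, was at 108 CPM in unlisted and 29.7 CPM in listed cells (3.64-fold higher, 2.02 to 7.0). SLC7A11, the cystine transporter, was at 145 and 61.6 CPM, and the serine synthesis enzymes PHGDH and PSAT1 were at 111 and 245 CPM in unlisted and 53.1 and 127 CPM in listed cells. DDIT3, the stress factor CHOP, was the lower gene at 67.7 against 136 CPM, and its log2 difference without thinning was -0.49, short of the call. Of these, PHGDH had the same direction in all 9 other populations, SLC7A5 in 7, PSAT1 in 6 and SLC7A11 in 3.

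The genes lower in unlisted cells included matrix, adhesion and signalling genes. CTGF (CCN2), a secreted matrix protein induced by TGF-beta and by YAP with TEAD factors, was at 1618 CPM in unlisted and 3813 CPM in listed cells, 2.36-fold lower (2.18 to 2.55). ID1 and ID3, inhibitors of basic helix-loop-helix factors and targets of BMP and TGF-beta signals, were at 1784 and 485 CPM in unlisted and 3565 and 1153 CPM in listed cells. BOC, a co-receptor of Hedgehog ligands, was at 259.7 and 932 CPM (3.59-fold lower, 2.99 to 4.33). ABLIM1, an actin-binding protein, was at 211 CPM in unlisted and 654 CPM in listed cells, and CYP1B1, a cytochrome P450 of steroids and aromatic compounds, at 432 and 1042 CPM.

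**Figure D3:**
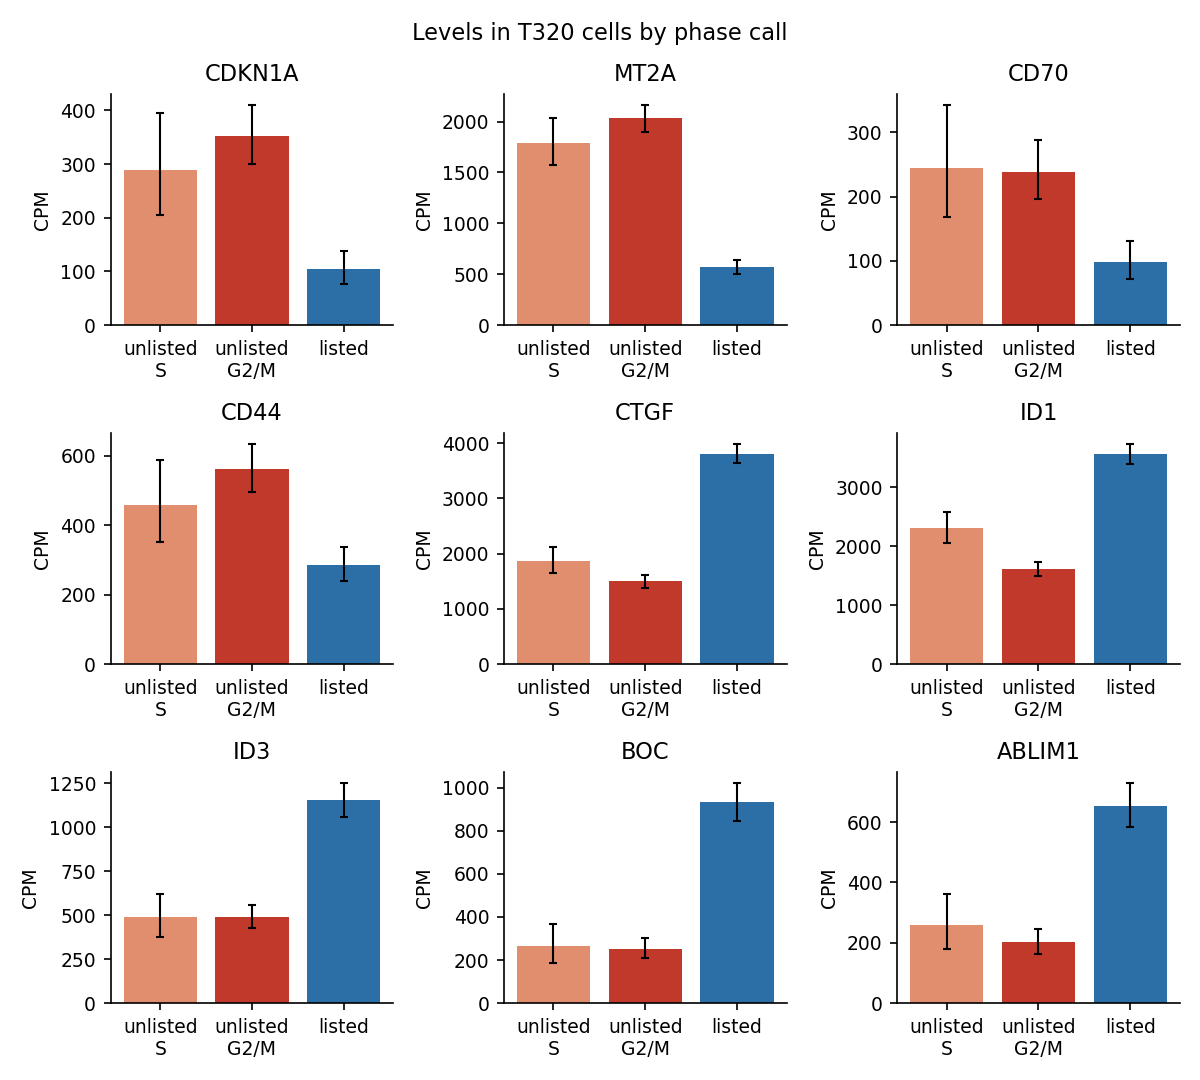
Levels (CPM) of 9 genes in unlisted T320 cells called S (135 cells) or G2/M (452 cells) and in the 471 listed cells; bars are summed levels and error bars exact Poisson 95% intervals. CDKN1A, MT2A, CD70 and CD44 are above the listed cells in both calls, and CTGF, ID1, ID3, BOC and ABLIM1 below them in both.

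Of the 21 TGF-beta targets 8 were measured, 5 were lower and none was higher, with a median log2 difference of -1.11. Among the 5 that reached 100 CPM in both groups 3 were lower. Over all members, with no filter, the sum was 5516 CPM in unlisted and 10312 CPM in listed cells (1.87-fold lower). Most of that sum came from CTGF, ID1 and ID3 in both groups, so it mainly describes these genes. ID1 and CTGF differed within the unlisted cells too: ID1 was at 2304 CPM in cells called S and 1615 CPM in cells called G2/M, and CTGF at 1874 and 1498 CPM. CYR61 (CCN1), the nearest relative of CTGF and also a YAP target, was at 911 CPM in unlisted and 883 CPM in listed cells. TGFBI and the smooth muscle actin gene ACTA2 were not called, at log2 differences of 0.50 and 0.25. TAGLN, an actin-binding protein of smooth muscle, was at 56.5 CPM in unlisted and 169.9 CPM in listed cells.

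Of the 5 lower TGF-beta targets 1 rested on a single listed cell: without the cell of each group that held most UMIs of a gene, 4 were lower. TM4SF1, a cell-surface protein, had the most negative log2 difference of all called genes, -2.32, and also rested on 1 cell: 150 of its 189 listed UMIs before thinning came from it, and without the cell of each group richest in it the log2 difference was 0.25. UMIs of the TGF-beta list, most of them from CTGF, ID1 and ID3, were spread over cells. The median of the list was 4 UMIs per unlisted cell (quartiles 2 and 8) and 9 UMIs per listed cell (quartiles 4 and 14). No UMI of the list was found in 5.32% of unlisted and 1.91% of listed cells.

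The CTGF promoter (chr6:131951323-131951622 on the minus strand) is shown for its TEAD motifs (CATTCC, in capitals, read as GGAATG here on the other strand), and that of MT2A (chr16:56608334-56608633 on the plus strand) for its metal response elements (MRE, TGCGCNC or TGCACNC, in capitals). Both genes were chosen for display after their values were seen.
CTGF: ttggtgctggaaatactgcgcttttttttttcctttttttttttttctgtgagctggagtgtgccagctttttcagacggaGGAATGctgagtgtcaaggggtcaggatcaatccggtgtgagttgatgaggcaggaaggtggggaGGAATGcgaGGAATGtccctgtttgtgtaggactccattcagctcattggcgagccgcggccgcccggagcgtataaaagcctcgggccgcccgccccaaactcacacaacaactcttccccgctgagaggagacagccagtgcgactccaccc
MT2A: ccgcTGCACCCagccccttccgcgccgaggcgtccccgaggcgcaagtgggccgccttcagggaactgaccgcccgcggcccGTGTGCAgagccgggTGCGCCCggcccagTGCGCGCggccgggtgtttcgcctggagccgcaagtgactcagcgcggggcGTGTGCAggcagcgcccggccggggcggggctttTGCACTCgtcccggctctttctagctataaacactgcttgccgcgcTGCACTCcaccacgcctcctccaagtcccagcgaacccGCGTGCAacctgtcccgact

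The CTGF window holds 3 TEAD motifs, and 14.0% of all promoters hold at least 1, as do 3 of the 18 matched promoters of TGF-beta targets (16.7%). The MT2A window holds 8 MRE matches, a motif short enough to be found in 29.6% of all promoters and 41.6% of those of measured genes. A match says nothing on whether a factor bound there.

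Further genes lower in unlisted cells were IGFBP5, an insulin-like growth factor binding protein, at 21.0 against 119 CPM (5.67-fold lower, 3.06 to 11.3), and IL1R1, the interleukin-1 receptor, at 24.2 against 106 CPM. GPX3, a secreted glutathione peroxidase, was at 102 CPM in unlisted and 312 CPM in listed cells. HMOX1, the heme oxygenase induced by NRF2, was at 134 and 382 CPM (2.85-fold lower, 2.19 to 3.75). The NRF2 list did not share that direction: of 12 measured, SLC7A11 and TXNRD1 (log2 difference 0.73) were higher, HMOX1 and AKR1B1 (-0.69, and -0.52 without thinning) were lower, and FTH1, the ferritin heavy chain, was at 4976 CPM in unlisted and 7297 CPM in listed cells and was not called.

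Genes of the mesenchymal state divided. Of 17 measured of 30, AXL was higher, and S100A4, TNC, LAMA4 and FN1 were lower. AXL, a receptor kinase, was at 245 CPM in unlisted and 138 CPM in listed cells. S100A4, which binds calcium and is linked to cell motility, was at 145 and 359 CPM, and TNC, the matrix protein tenascin-C, at 398 and 709 CPM, unlisted cells first. VIM, the intermediate filament vimentin, was at 2213 CPM in unlisted and 1947 CPM in listed cells, a ratio of 1.14 (1.04 to 1.24). The epithelial genes measured were KRT8, KRT18 and PAX8, the lineage factor of the female tract, and all 3 were lower. KRT8 was at 176 and 274 CPM, KRT18 at 118 and 189 CPM, and PAX8 at 106 and 189 CPM in unlisted and listed cells. KRT8 and PAX8 were lower in all 9 other populations and KRT18 in 4 of them, and AXL was higher in 5.

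A list of 20 genes that earlier results of these data gave as higher along the escalation was also not uniform, so it is described only. CD70, the ligand of CD27, was at 242 CPM in unlisted and 97.7 CPM in listed cells (2.48-fold higher, 1.77 to 3.53), at 244 CPM in cells called S and 239 CPM in those called G2/M. CD44, the hyaluronan receptor, was at 518 and 285 CPM (1.82-fold higher, 1.48 to 2.24). LAMA4, a laminin chain, and SAMD11 were lower, at 109.7 and 46.8 CPM in unlisted and 199.6 and 159 CPM in listed cells. Of 12 measured, 3 were higher and 2 lower, with a median log2 difference of 0.17 that ran from 0.06 with another random draw to 0.79 with a minimum of 200 CPM.

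Hypoxia targets were lower in 4 of 8 measured cases, and in 3 of the 6 that reached 100 CPM in both groups. NDRG1 was at 171 against 344 CPM and the mitophagy receptor BNIP3 at 126 against 225 CPM, unlisted cells first. NDRG1 was lower in 6 of the 9 other populations and BNIP3 in 5. BNIP3L, also lower, was at -0.47 without thinning, short of the call. MXI1, given above among the genes of rest, was the lower gene that passed through the listed cells alone. Of 7 early response genes that reached 100 CPM in both groups, only FOSB was lower, at a log2 difference of -1.01. MYC and FOS passed through the listed cells alone, at -0.90 and -0.68, and MYC was at -0.52 without thinning, short of the call. Genes of housekeeping systems differed little. None of 13 glycolytic genes and none of 53 ribosomal protein genes was called, with median log2 differences of -0.05 and -0.18 (down to -0.58 for RPS2), although ribosomal transcripts summed to 140345 CPM in unlisted and 155066 CPM in listed cells. Of 30 nuclear genes of the respiratory chain only SDHA was higher, at 195 against 97.7 CPM. The 13 genes of the mitochondrial genome summed to 65642 CPM in unlisted and 78516 CPM in listed cells, with only MT-ATP8 called lower, and their part in the other differences was not tested.

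The same contrast was computed within each of the 9 other populations as a description of how general each difference was. Those populations belong to 1 serial escalation and are not replicates of T320. A population that lists a gene at 0 counts as not having its direction. Of the 270 genes higher at T320, 158 (58.5%) had that direction in 9 of 9, as did 44 of the 168 lower genes (26.2%), against 391 of all 2259 measured genes (17.3%). Of the 90 higher genes of the cell-cycle lists, 88 had it, against 93 of all 104 measured genes of those lists. Outside those lists 70 of 180 higher genes did (38.9%), against 298 of all 2155 measured genes there (13.8%). Among the 70 were CDKN1A (log2 differences of 0.46 to 1.45 elsewhere), MT2A (0.10 to 1.72), IDH2 (0.43 to 1.60), BRCA1 (0.98 to 2.08) and PARP1 (0.14 to 0.75).

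Among lower genes, IGFBP5 (log2 differences of -2.20 to -0.84), BOC (-1.39 to -0.13), HMOX1 (-1.57 to -0.22), CTGF (-0.59 to -0.12) and ID3 (-1.18 to -0.03) were lower in all 9. ABLIM1 and GPX3 were lower in 8, TNC and CDKN2A in 6 and LAMA4 in 5. CD44 was higher in 8. CD70 was listed at 0 in 4 of the others, and in the 5 with a value it was higher in 4. For the 8 TGF-beta targets measured at T320 the median log2 difference was -1.11 at T320 and -0.59 to 0.00 elsewhere. With no filter on low values the T320 median was -0.24, over the 19 members with a UMI. An unfiltered median was not computed for the other populations, so no gap is read from these values. The median of the G2/M genes measured at T320 was 2.50 at T320 and 1.62 to 2.54 elsewhere. No test of these gaps was possible.

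**Figure D4:**
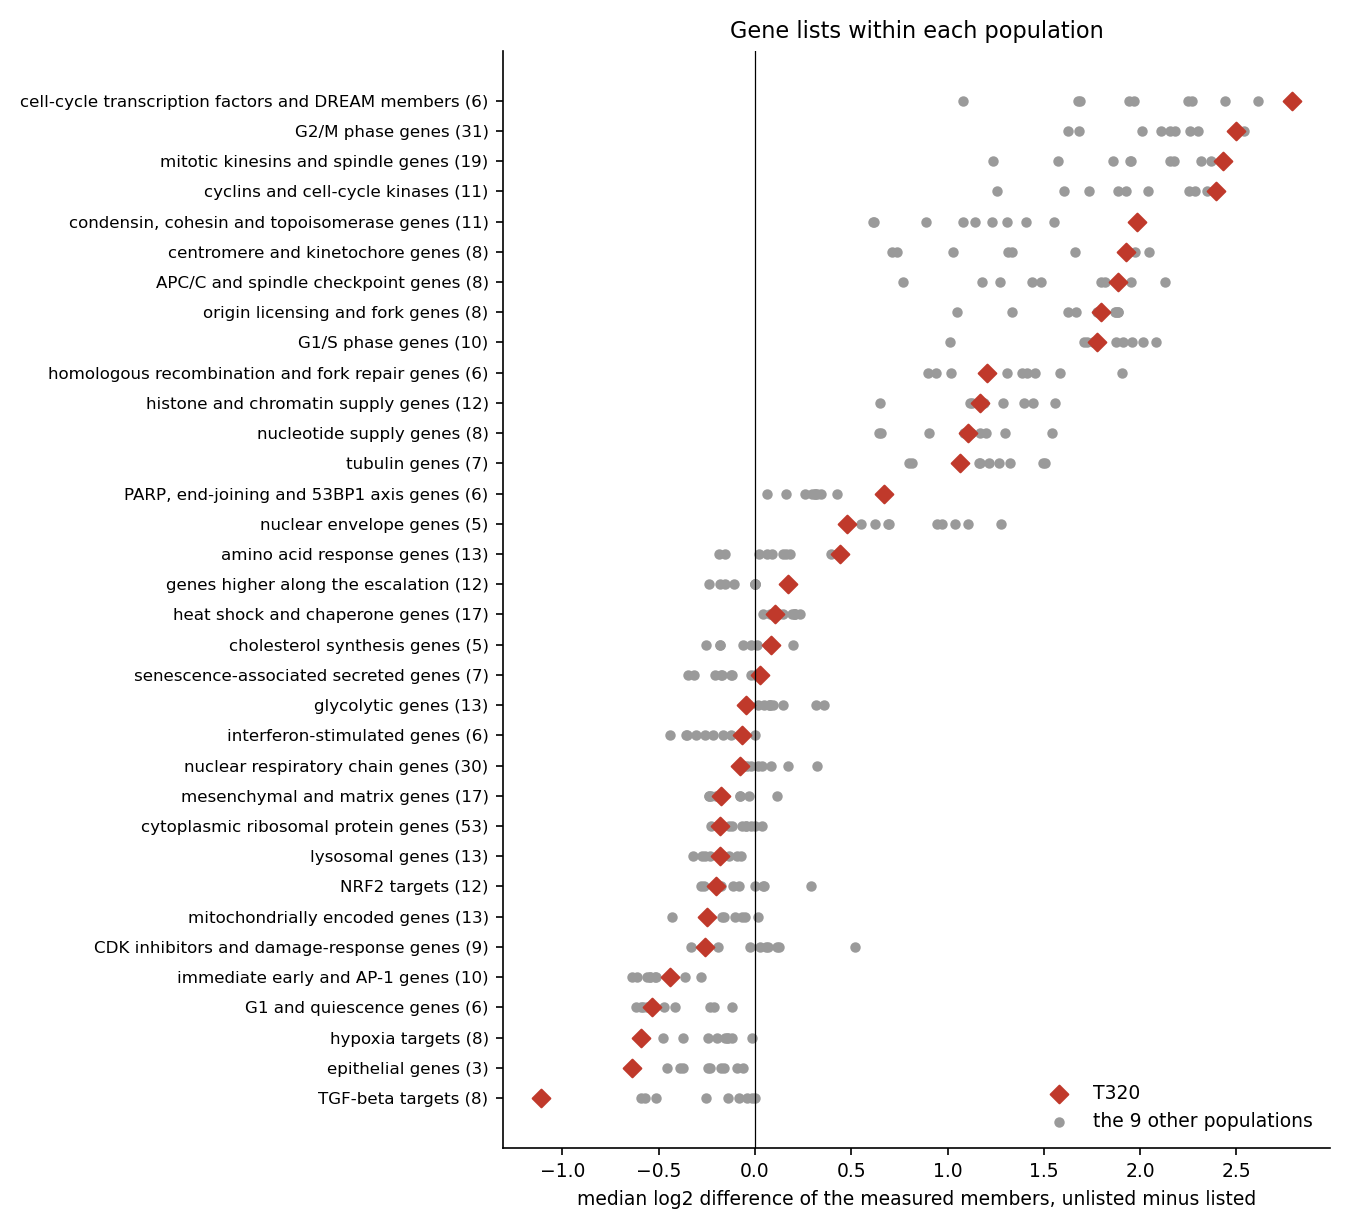
Median difference between unlisted and listed cells (log2 of CPM + 10, unlisted minus listed) of each gene list in T320 (red diamonds) and in each of the 9 other populations (grey points). In every population the median covers the members measured at T320, whose number is in parentheses. Cell-cycle lists lie to the right in every population. At this setting the TGF-beta targets at -1.11 lie to the left of the other populations' -0.59 to 0.00. With no filter on low values the T320 median was -0.24 over more members, and it was not computed elsewhere.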

How the data were processed

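The matrix deposited by the authors holds raw UMI counts, 12373 genes in 18209 cells. The deposited metadata gives each listed cell's genes and UMIs as counts, its mitochondrial UMIs as a fraction, and its population and state as labels. The submitters' processing notes name Seurat 2.3.2, hg38 and GRCh38. The sources used here name no aligner, annotation, cell filter or rule for listing cells. Listed cells were matched by name, those of T40 by barcode, with identical UMI totals.

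Cells were thinned without replacement (seed 1), summed and scaled to CPM in Python 3.11.15 (numpy 2.4.6, scipy 1.17.1, scanpy 1.11.5 for phase scores). The pseudocount was 10 CPM. Cells were filtered only at 1000 UMIs. Doublets were not called and may remain. The script was tested on simulated data. edgeR 4.0.16 and DESeq2 1.42.0 gave scaling factors only, for alternatives, and made no test. Ratio intervals are exact conditional Poisson, those of shares Clopper-Pearson. The members, gene lists and comparisons were chosen with earlier results of these data known.

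Genes named were the 15 highest and 15 lowest calls whose interval excluded 1, the 10 highest and 10 lowest outside the cell-cycle lists, up to 4 of each list with the largest differences, and genes fixed for their roles (PCNA, MCM2, TYMS, RRM2, TOP2A, MKI67, CDK1, CCNB1, CCND1, CDKN1A, PARP1, CD44, CD70, VIM). The text mentions part of these. Others, such as ID1, CYP1B1, HIST1H4C, PSAT1, FTH1, MT1X, TOP2B and list members given for their roles, were named after their values were seen. Some genes that the rule selects are not reported here.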

Additional observations from a re-analysis of the deposited data

How the results depend on the processing

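No paired analysis was possible because every population is 1 library and the labels carry no replicate numbers. The counts of 270 higher and 168 lower genes became 670 and 356 with a minimum of 50 CPM, 102 and 71 with 200 CPM, 1538 and 882 with no filter, and 118 and 47 at 2-fold for a call; by construction these settings change how many genes can be called. Other depths (690 or 1500 UMIs, or no thinning), another seed, pseudocounts of 1 or 20 CPM and leaving out the 5% of cells with most UMIs gave 232 to 302 higher and 140 to 191 lower genes. TMM scaling of the thinned sums gave 220 higher and 228 lower genes (49.1% higher, against 61.6%), and DESeq2 size factors 223 and 215 (50.9%), as the median of all measured genes moved to -0.05 and -0.04, against 0.04. The TGF-beta median of -1.11 was -0.75 at 1500 UMIs, -0.69 with 50 CPM and -0.24 with no filter. An alternative added after the data were seen, without the 1 cell per group holding most UMIs of a gene, gave 271 and 159 calls and TM4SF1 at 0.25. The cause was not tested for the TGF-beta median. Cells holding at least 3 G1/S UMIs made up 87.8% of unlisted and 23.2% of listed cells at 1500 UMIs, 56.8% and 4.64% at 690 UMIs, and 89.4% and 37.0% without thinning; with at least 1, 2 or 5 UMIs they made up 96.6%, 87.1% or 40.6% of unlisted and 64.1%, 28.2% or 0.637% of listed cells. For the G2/M list the shares were 99.1% and 60.6% at 1500 UMIs, 91.9% and 25.4% at 690 UMIs, and 70.2% of listed cells without thinning; with at least 1, 2 or 5 UMIs they were 100%, 99.2% or 91.1% of unlisted and 86.2%, 60.5% or 10.6% of listed cells. Depth limits the text to genes near 100 CPM or above, and differences under 1.5-fold at that level were not detectable.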

Other observations

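Of the 270 genes higher at T320, 20 had that direction in at most 4 of the 9 other populations, as did 25 of the 168 lower genes. A population that lists a gene at 0 counts here as not having the direction. CD70 is among the 20 for that reason, and the counts for HMGA2 and CLDN11 do not separate such populations. Of all 2259 measured genes 666 did. The 3 below are examples. SMARCA2, an ATPase of the SWI/SNF chromatin remodelling complex, was at 100 CPM in unlisted and 53.1 CPM in listed T320 cells (1.88-fold higher, 1.17 to 3.13), and its log2 difference of 0.80 stood against -1.12 to -0.21 within the 9 other populations. HMGA2, a chromatin protein of embryonic and tumour cells, was at 116 CPM in unlisted and 255 CPM in listed cells, and 2 other populations had that direction. CLDN11, a tight junction protein, was at 64.5 and 146 CPM, unlisted cells first, and 1 other population had that direction. SMARCA2 was measured through the unlisted cells alone and CLDN11 through the listed cells alone. These 3 genes were chosen after their values were seen, and the gaps between populations were not tested.

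The next 4 genes, which belong to no list used here, were also chosen after their values were seen. NFKBIA, the inhibitor of NF-kappaB, was at 134 CPM in unlisted and 295 CPM in listed cells. SOCS3, a feedback inhibitor of cytokine receptors, was at 45.2 and 104 CPM, and SPRY1, a feedback inhibitor of receptor kinases, at 123 and 227 CPM, unlisted cells first. IGF2, the insulin-like growth factor, was at 290.3 CPM in unlisted and 611 CPM in listed cells. SPRY1 was lower in unlisted cells of all 9 other populations, SOCS3 in 8, NFKBIA in 6 and IGF2 in 5.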
